A study of Homo sapiens with 28 samples.

Results

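Open chromatin in cells expressing ARID1B_A457_G461del was set against open chromatin in cells expressing ARID1B_WT, using the 4 libraries whose titles carry these constructs (2 each) of 28 libraries in all. By the sample titles the measurement was ATAC-seq, in which a transposase inserts adapters into accessible DNA, and the cells were AN3CA, an established human endometrial carcinoma line. The 4 Empty_vector libraries gave the floor, that is, the peaks called in these cells without an added ARID1 subunit. Libraries of ARID1B_S320_G327del, ARID1B_Block13del, ARID1B_Block9del, ARID1A_Y42S, ARID1A_WT and ARID1A_DDX4 (2 each) were read on the same regions for comparison. The name A457_G461del has the form of a short amino acid deletion, and nothing beyond the label was assumed about the construct. Whether a group was 1 clone, and how strongly each construct was expressed, is not given in the sources used here.

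ARID1B is an ARID-domain subunit of the canonical BAF complex, an ATP-driven remodeler that slides and evicts nucleosomes, much of it at enhancers. It is built into the complex in place of its paralog ARID1A, so that a complex holds one or the other. Long stretches of both proteins outside the ARID domain and the core-binding region are intrinsically disordered.

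Several properties of these libraries limit what the comparison can show. The design text of the series names another assay, CUT&Tag, and the peak lists were read as ATAC-seq because the titles say so. The ARID1B_A457_G461del libraries carry another date code in their peak names than the ARID1B_WT libraries. What the date marks is not stated, and libraries that share a code are called a run here, run E for the deletion and run C for the wild type, so run and construct cannot be told apart. Run E holds no Empty_vector and no wild-type library, while Empty_vector libraries 3 and 4 share run C with ARID1B_WT. The genotype label of both ARID1B_A457_G461del libraries names the empty vector control, but their titles and the names of their peaks carry the deletion, and they were grouped by title. The genotype labels of the ARID1B_Block13del, ARID1B_Block9del and ARID1A_Y42S libraries name the empty vector control too, and these were also grouped by title. The labels do not say whether replicates came from separate cultures, so a spread between replicates may be technical, and with 2 libraries against 2 an exact permutation test over 6 splits cannot go below p = 0.333.

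The deposited lists held 52750 and 50763 peaks for ARID1B_A457_G461del, 63529 and 59826 for ARID1B_WT, and 24573 to 49528 for Empty_vector. The number of reads behind each list is unknown, and list length can move with it. Every list was therefore also cut to its 19433 strongest peaks by the authors' p-value, the length of the shortest list of the series, and peaks that overlapped between libraries were merged into 32972 regions seen in at least 2 libraries. A region counts as called in a library when a kept peak of that library overlaps it. At equal length a call thus says that a region ranks among the strongest of its own list, and a region not called may still be open and rank further down. In the cut lists the median peak width was 844 and 798 bp with ARID1B_A457_G461del and 890 and 792 bp with ARID1B_WT, so the widths of the groups overlapped. No annotation of the files' genome build, hg19, was used here, so regions are given by position and not by gene, and no cell type markers could be read.

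The first comparison asked how much of the chromatin opened by a wild-type ARID1 subunit was also open with the deletion. The regions gained with ARID1A_WT are a neutral yardstick, since neither ARID1B group helped to choose them. They are the 2874 regions that both ARID1A_WT libraries and none of the Empty_vector libraries called. The ARID1B_A457_G461del libraries called 63.4% and 64.2% of them, against 73.7% and 73.9% in the ARID1B_WT libraries. The groups did not overlap, and the Empty_vector libraries called 1.41% to 1.74%. The mean was 63.8% ± 0.541 with ARID1B_A457_G461del and 73.8% ± 0.172 with ARID1B_WT (SD, n = 2 each). The difference of -10.0 percentage points was many times the spread within either group and reached the smallest p the design allows (p = 0.333 by a two-sided exact permutation test). On the scale from Empty_vector to ARID1B_WT, the deletion stood at 86.2% of the span.

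Regions lost with ARID1A_WT went the other way. These are the 1093 regions called in all 4 Empty_vector libraries and in neither ARID1A_WT library. The ARID1B_A457_G461del libraries still called 30.9% and 31.7% of them, against 19.9% and 20.6% with ARID1B_WT. Again the groups did not overlap. The mean was 31.3% ± 0.518 with ARID1B_A457_G461del and 20.3% ± 0.453 with ARID1B_WT (SD, n = 2 each). The groups were 11.0 percentage points apart (p = 0.333 by the two-sided exact permutation test). Empty_vector libraries, each scored on a set chosen without it, called 76.2% to 82.7%. The deletion thus lay between wild type and floor in both directions, much nearer to wild type.

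The regions gained with ARID1B_WT itself showed a wider gap. Each ARID1B_WT library was scored on the gains of the other one, so that no library was scored on regions it had chosen, and the other libraries were scored on both sets. The ARID1B_A457_G461del libraries called 61.2% and 62.1%, against 79.0% and 82.0% in the ARID1B_WT libraries, with 61.7% ± 0.682 and 80.5% ± 2.13 as means (SD, n = 2 each). The means were -18.9 percentage points apart (p = 0.333 by the two-sided exact permutation test), and the Empty_vector floor was 1.15% ± 0.286 (SD, n = 4). On the regions lost with ARID1B_WT, the ARID1B_A457_G461del libraries called 48.4% and 45.4%, against 35.7% and 29.4% with ARID1B_WT and 88.2% ± 3.22 with Empty_vector (SD, n = 4). The ARID1B_WT libraries share run C, which may add to their agreement with each other, and the part of the run in this wider gap was not tested. ARID1B_S320_G327del, the other small deletion, shares that run and called 78.9% ± 0.233 of the gained regions (SD, n = 2).

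**Figure D1:**
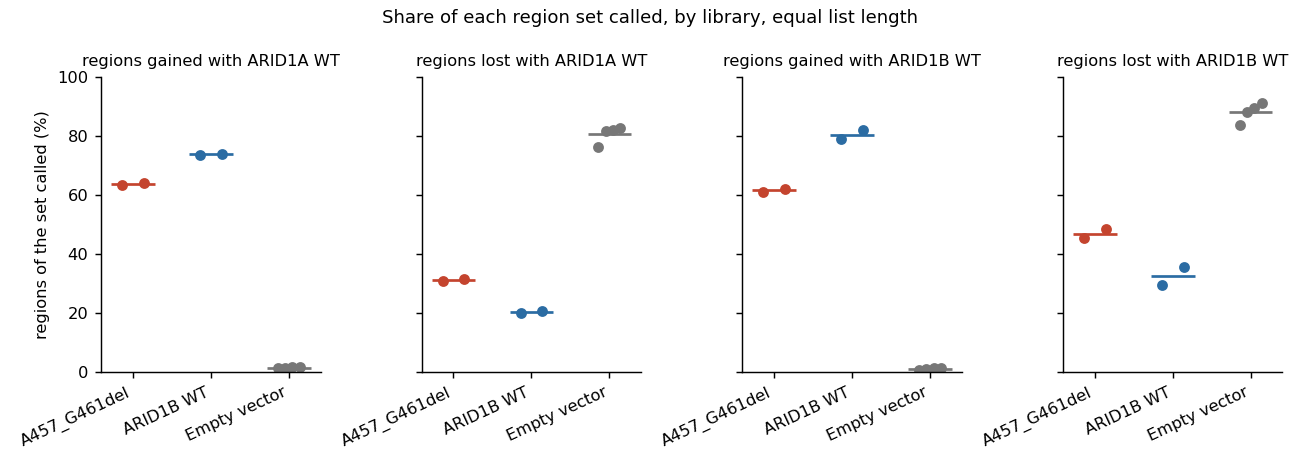
Percent of the regions of each set that were called in each library (points) with the group mean (line), for A457_G461del, ARID1B WT and Empty vector libraries in lists of equal length. In all 4 sets the A457_G461del libraries lie between the ARID1B WT and the Empty vector libraries, at 63.4% and 64.2% in the first set against 73.7% and 73.9% with ARID1B WT.

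Full-length lists kept the order on gained regions. There the ARID1B_A457_G461del libraries called 61.1% ± 1.16 of the regions gained with ARID1A_WT, against 78.7% ± 2.29 with ARID1B_WT (SD, n = 2 each), and 61.9% ± 1.27 against 85.3% ± 3.97 of those gained with ARID1B_WT (SD, n = 2 each). The deletion's full-length lists are also the shorter ones. On lost regions the groups overlapped at full length. Regions lost with ARID1A_WT, only 107 there, were called at 23.4% and 29.0% with ARID1B_A457_G461del. With ARID1B_WT they were called at 24.3% and 13.1% (p = 0.667 by the two-sided exact permutation test). Empty_vector libraries, each scored on a set chosen without it, ran from 25.3% to 93.9%, so this set had no steady floor.

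Strong gained regions were called more often than weak ones with the deletion and with wild type alike. The 2874 regions gained with ARID1A_WT were split into quartiles by their mean rank in ARID1A_WT. In the strongest quartile ARID1B_A457_G461del called 86.0% ± 0.0983 and ARID1B_WT 92.5% ± 0.197 (SD, n = 2 each). In the next quartile the means were 68.2% ± 0.197 with the deletion and 78.7% ± 0.885 with wild type (SD, n = 2 each). In the one after it they were 54.2% ± 0.788 with the deletion and 65.5% ± 0.295 with wild type (SD, n = 2 each). The weakest quartile had 46.7% ± 1.48 with the deletion and 58.4% ± 2.07 with wild type (SD, n = 2 each). The libraries of the 2 groups did not overlap in any quartile. At full length nearly all of these regions were in the lists of both groups. In the strongest quartile the deletion called 99.6% and ARID1B_WT 100%, and in the weakest the deletion called 96.0% and ARID1B_WT 99.1%. The equal-length gap on these regions was therefore one of rank far more than of presence. ARID1B_Block13del, a deletion with the same date code as ARID1B_A457_G461del, called 44.8% in the strongest quartile and 10.7% in the weakest at equal length, and 91.9% and 61.8% of these at full length.

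**Figure D2:**
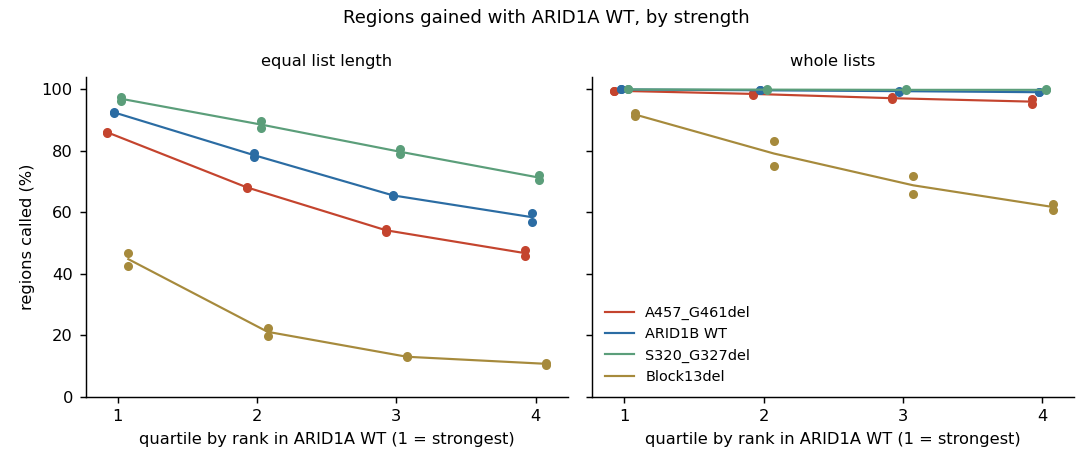
Percent of the regions gained with ARID1A WT that were called, by quartile of their rank in ARID1A WT, in lists of equal length and in whole lists (points: libraries, lines: group means). A457_G461del lies below ARID1B WT in each quartile at equal length, at 46.7% against 58.4% in the weakest, and in whole lists their means in that quartile are 96.0% and 99.1%.

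Regions called in both libraries of one construct and in neither of the other were then counted over all 32972 regions. There were 983 called only with ARID1B_A457_G461del, 2.98% of the regions, and 1173 called only with ARID1B_WT, 3.56%. Shares of this size also arise between libraries of one construct from different runs. The Empty_vector libraries of run C, set against those of runs A and B, differed in the same way at 831 regions (2.52%) called only in run C and 950 (2.88%) called only in the earlier runs. Within run C, ARID1B_S320_G327del and ARID1B_WT differed at 1307 (3.96%) and 1011 (3.07%). The counts alone therefore do not set the deletion apart. They also depend on how many libraries must agree, since leaving out any 1 of the 4 libraries took the deletion-only count to between 1791 and 1929 and the wild-type-only count to between 1715 and 2021. At full length 1174 regions (1.23%) were called only with the deletion and 6500 (6.81%) only with ARID1B_WT, in lists of unequal length.

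Which regions these were differed more than how many. Of the 983 regions called only with the deletion, 315 (32.0%) were in no Empty_vector library, 428 (43.5%) were in all 4, and 240 were in 1 to 3. Of the 1173 called only with ARID1B_WT, 991 (84.5%) were in no Empty_vector library, 98 (8.35%) were in all 4, and 84 were in 1 to 3. Over all 32972 regions, 30.8% were in no Empty_vector library and 47.6% in all 4. At equal length deletion-only regions thus had nearly the makeup of the whole region list, while wild-type-only regions were mostly sites in no cut Empty_vector list, called opened here. In the full-length Empty_vector lists, 225 of the 315 deletion-only and 856 of the 991 wild-type-only opened regions were absent from all 4. The makeup of the deletion-only regions moved with list length. In whole lists 46.8% of them were in no Empty_vector library and 10.2% in all 4, while for wild-type-only regions these shares were 86.1% and 1.40%.

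Rates within each class compare both directions without the class sizes. Of the 3160 regions in no Empty_vector library that both ARID1B_A457_G461del libraries called (9.58% of all regions), neither ARID1B_WT library called 9.97%. In the other direction, of the 4006 such regions that both ARID1B_WT libraries called (12.1%), neither ARID1B_A457_G461del library called 24.7%. At regions in all 4 Empty_vector libraries the order turned, with 3.33% of 12842 regions missing from both wild-type libraries and 0.826% of 11859 missing from both deletion libraries. It was also turned at regions in 1 to 3 Empty_vector libraries. There 25.4% of 944 regions were missing from both wild-type libraries and 12.2% of 689 from both deletion libraries. ARID1B_S320_G327del had the opposite profile. Of its 5097 regions in no Empty_vector library 22.2% were in neither ARID1B_WT library, while 10.1% of the 4006 wild-type regions were in neither of its libraries. The 2 small deletions were not tested against each other, as they come from different runs.

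**Figure D3:**
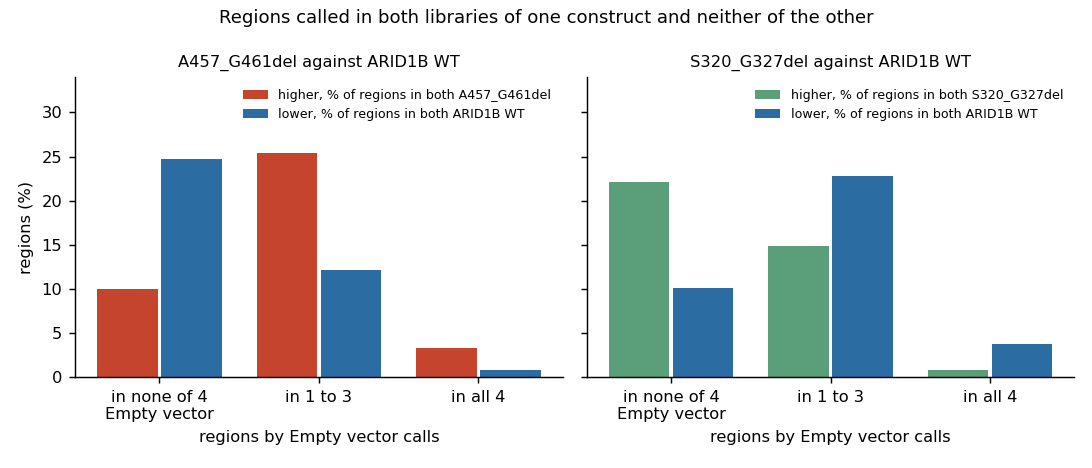
Percent of the regions called in both libraries of one construct that neither library of the other construct called, by the number of Empty vector libraries calling the region, for A457_G461del against ARID1B WT and for S320_G327del against ARID1B WT. At regions in no Empty vector library the A457_G461del bar stands at 9.97% and the ARID1B WT bar at 24.7%, and the S320_G327del panel has the opposite order.

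Absence from the short list was seldom absence from the data. Of the 315 opened regions called only with the deletion, 305 (96.8%) were in both full-length ARID1B_WT lists and 0 were in neither. Of the 991 opened regions called only with ARID1B_WT, 935 (94.3%) were in both full-length ARID1B_A457_G461del lists and 12 (1.21%) were in neither. Over all regions, 89.8% were in both full-length ARID1B_A457_G461del lists and 4.44% in neither. The full-length ARID1B_WT lists held 93.7% and 92.0% of all regions. Presence at full length was thus common to most regions and not particular to these. The wild-type-only opened regions were narrow, with a median width of 715 bp against 977 bp over all regions, and their median rank in ARID1B_WT was 14575 of 19433. Opened regions that both deletion libraries kept had a median width of 915 bp and a median ARID1B_WT rank of 9820.

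The other constructs place these regions. Of the 315 opened deletion-only regions, 251 (79.7%) were in none of the 6 other libraries of run E and 5 (1.59%) were in all 6. Over all regions these shares were 25.8% and 43.7%, and over the opened regions that both groups called they were 56.2% and 0.460%. These 315 were called at 47.3% and 46.7% in ARID1B_S320_G327del and at 9.21% and 12.4% in ARID1B_Block13del. The 428 deletion-only regions that all Empty_vector libraries share were found at 94.2% and 93.9% in ARID1B_Block13del, at 73.1% and 69.4% in ARID1A_WT, and at 27.1% and 26.2% in ARID1B_S320_G327del. The 6 other libraries of run E all called 317 of these 428 (74.1%), against 43.7% over all regions. Over regions that both deletion and both wild-type libraries called, 79.9% of them in all Empty_vector libraries, the share was 79.5%. So 74.1% was not high for sites shared with Empty_vector. At equal length the 991 opened wild-type-only regions were called at 60.4% and 61.8% in the ARID1B_S320_G327del libraries and at 31.8% and 30.0% in the ARID1A_WT libraries. Over all regions the ARID1B_S320_G327del libraries called 57.1% and 57.2%, close to their share here, and the ARID1A_WT libraries 58.5% and 58.4%. In run E, the 2 ARID1B_Block13del libraries each called 0.605% and the ARID1B_Block9del libraries 0.404%, while each called 58.2% to 58.4% of all regions. Such low shares were not particular to run E, since the ARID1A_DDX4 libraries of another run called 0.706% and 0.505%. Of the opened regions that both groups called, ARID1B_Block13del called 31.9% and 28.3% and ARID1B_Block9del 2.22% and 3.22%. In full-length lists the ARID1B_Block13del libraries held 44.4% and 34.9% of the 991, against 82.0% and 79.7% of all regions. The ARID1B_Block9del libraries held 10.1% and 11.2% of the 991 there, against 74.6% and 75.0% of all regions. Of the opened regions that both groups called, full-length ARID1B_Block13del lists held 92.1% and 88.7% and ARID1B_Block9del lists 47.7% and 52.6%.

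The 4006 regions gained with ARID1B_WT were followed one by one. Both ARID1B_A457_G461del libraries called 2392 of them (59.7%), 1 library called 623 (15.6%) and neither called 991 (24.7%). Regions that ARID1A_WT opens too were kept more often. The deletion libraries called 81.2% and 82.6% of the 1905 that both ARID1A_WT libraries called, and 49.8% and 50.7% of the 1525 that neither ARID1A_WT library called. The shared regions rank better, at a median of 9373 in ARID1B_WT against 13943 for the others, and are wider, at a median of 974 bp against 710 bp. Within quartiles of the ARID1B_WT rank the order held, but quartiles did not level rank or width. Shared regions still had better median ranks in each, and were wider, at 993 bp against 766 bp in the strongest and 992 bp against 688.5 bp in the weakest. In the strongest quartile the mean was 96.6% of 820 shared regions and 88.7% of 106 unshared ones, and in the weakest it was 52.7% of 244 and 34.9% of 612. ARID1B_S320_G327del ran the same way in the weakest quartile, with 79.9% and 82.4% of shared and 53.3% and 55.1% of unshared regions. The difference between shared and unshared regions was thus seen with both deletions.

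Of the 1951 regions lost with ARID1B_WT (5.92% of all regions), both deletion libraries called 428 (21.9%), 1 library called 561 (28.8%) and neither called 962 (49.3%). Both ARID1B_Block13del libraries called 89.3% of the 428, 77.7% of the 561 and 46.5% of the 962. The order was not particular to ARID1B_Block13del. Both ARID1A_WT libraries called 58.6%, 39.6% and 24.3%, and both ARID1B_S320_G327del libraries 12.6%, 3.57% and 1.77%. The median rank in Empty_vector weakened in the same order, at 13244.5, 14445.5 and 15411.2. Against Empty_vector directly, the deletion's own losses were 1382 regions (4.19%).

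Regions called in all 4 libraries at equal length could also be compared by rank. There were 14248, so regions that missed the cut in any of the 4 lists are not among them. Both ARID1B_A457_G461del libraries ranked 3179 of them (22.3%) better than both ARID1B_WT libraries did, and 2814 (19.8%) worse. Opened regions and those shared with Empty_vector parted. Among the 2392 opened regions, the deletion ranked 11.7% better and 40.9% worse, with a median log2 rank shift of -0.23, where a negative value means a better rank in ARID1B_WT. Among the 11379 regions in all Empty_vector libraries it ranked 24.5% better and 15.2% worse, with a median log2 shift of 0.08. Ranks are relative, so within a list a better rank of some regions entails a worse rank of others.

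**Figure D4:**
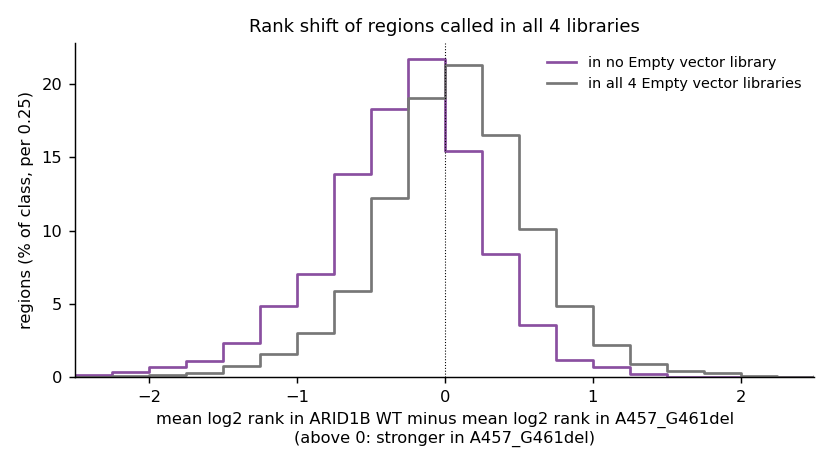
Distribution of the rank shift, the mean log2 rank in the ARID1B WT libraries minus that in the A457_G461del libraries, for regions called in all 4 libraries, in steps of 0.25, with regions in no Empty vector library and regions in all 4 drawn apart. Regions in no Empty vector library sit to the left of 0 with a median of -0.23, and those in all 4 have a median of 0.08.

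Single regions show what these shares are made of. Positions are in hg19, ranks are places in a library's full-length list, and folds are the authors' enrichment over the caller's background, given to describe each peak within its own list. The strongest opened regions that the deletion kept ranked high with the deletion and with wild type. At chr8:131495285-131496370, 1086 bp wide, the ranks were 349 and 201 with ARID1B_A457_G461del and 1236 and 220 with ARID1B_WT. The folds there were 8.41 and 10.3 with the deletion and 7.05 and 10.3 with wild type. At chr5:178069025-178070221 the ranks were 1175 and 896 with the deletion and 515 and 1265 with wild type, so the groups overlapped at both sites.

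At other kept regions the ranks of the groups did not overlap. At chr5:71461946-71463019 the deletion libraries ranked the site 1323 and 1057 and the wild-type libraries 722 and 764. At chr5:141289387-141290345 the ranks were 2182 and 1418 with the deletion against 728 and 818 with wild type. At chr12:50262732-50263644 they were 2230 and 2182 with the deletion against 1445 and 1130 with wild type. At chr5:158667112-158667886 they were 1362 and 1421 with the deletion against 1096 and 878 with wild type. At chr10:72691884-72692835 they were 3716 and 1220 with the deletion against 1037 and 992 with wild type. At all of these sites both ARID1B_WT libraries had the better ranks, and both deletion libraries lay far above the cut. The folds did not always follow the ranks. At chr5:71461946-71463019 they were 7.98 and 8.26 with the deletion and 7.00 and 7.54 with wild type. At chr12:50262732-50263644 they were 6.49 and 6.71 with the deletion and 5.57 and 6.30 with wild type. At chr5:141289387-141290345 and chr10:72691884-72692835 the folds of the groups overlapped. At chr5:158667112-158667886 the folds did follow the ranks, at 7.27 and 7.28 with the deletion and 7.68 and 8.20 with wild type. Of the 8 regions, 7 were in no Empty_vector list at any length, and chr8:81279030-81280190 was in all 4 full-length Empty_vector lists, at ranks of 24166 to 29585. All 8, picked as the best ranked, were called in both ARID1B_Block13del libraries, which together called 17.6% of the 2392 opened regions that the deletion kept.

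The strongest opened regions that dropped out of both cut deletion lists were still peaks further down. The best was chr8:134228426-134229382, 957 bp wide, at rank 21091 and 32094 with ARID1B_A457_G461del and at rank 5076 and 3649 with ARID1B_WT. Its fold was 6.22 and 4.91 with the deletion and 6.22 and 7.04 with wild type. At chr3:149996608-149997220 the ranks were 24308 and 26919 with the deletion and 5259 and 4192 with wild type. The fold there was 7.27 and 6.68 with the deletion and 9.56 and 10.3 with wild type, so the groups were apart on both measures.

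A site at chr5:55408306-55408989 had ranks of 31263 and 29201 with the deletion and 5265 and 4584 with wild type. Both ARID1B_S320_G327del and both ARID1A_WT libraries called it, and no ARID1B_Block13del library had it at any length. At chr7:2214832-2215591 the ranks were 23126 and 20754 with the deletion and 5661 and 5733 with wild type. The remaining 4 sites, on chromosomes 10, 14, 1 and 2, ranked between 19529 and 25292 in the deletion libraries and between 4999 and 8027 in the wild-type libraries. The site on chromosome 2, chr2:26946761-26947796, missed the cut narrowly, at ranks 19529 and 19821. All 8 were in both full-length deletion lists, and 7 of the 8 were in no Empty_vector list at any length.

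Among the regions called only with the deletion, the 8 with the best ranks were sites that vector cells also have. The first, chr7:99754736-99757016, ranked 7719 and 4165 with ARID1B_A457_G461del and 19871 and 19978 with ARID1B_WT, just below the cut. Its rank in the Empty_vector libraries was 8572 to 11804. At chr19:49466890-49469701, 2812 bp wide, the ranks were 6133 and 8409 with the deletion, 22374 and 19818 with wild type, and 7004 to 13374 with Empty_vector. At both sites the deletion libraries overlapped or bettered the Empty_vector range, and the wild-type libraries lay beyond it.

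At chr20:3657165-3658457 the ranks were 9066 and 8533 with the deletion, 28048 and 27645 with wild type and 10046 to 14029 with Empty_vector. At chr8:15235869-15236425 they were 8378 and 9533 with the deletion and 25875 and 29743 with wild type. One of the 8 differed in kind. The 419 bp site at chr12:59543847-59544265 had ranks of 10785 and 5555 and folds of 10.6 and 13.2 with the deletion and was in neither full-length ARID1B_WT list. It was in Empty_vector libraries 1 and 2, at ranks 5079 and 7483, and in neither Empty_vector library of run C, nor in any ARID1B_S320_G327del library. Of ARID1B_Block9del, ARID1A_Y42S and ARID1A_WT, 1 library each called it, so its calls differed between replicates too.

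Rank gaps at regions called in all 4 libraries ran both ways. At chr12:2921496-2923166 the ranks were 437 and 443 with the deletion and 3819 and 2089 with wild type, and at chr4:83955545-83957013 they were 312 and 469 with the deletion and 2219 and 1824 with wild type. Both sites were called in all 28 libraries. In the other direction chr6:44698296-44699079 ranked 7191 and 5981 with the deletion against 822 and 1116 with wild type, and chr7:86374023-86375019 ranked 8086 and 8931 with the deletion against 1470 and 1700 with wild type. Neither of these 2 was in any Empty_vector list. The other 2 sites ranked better with wild type, chr1:143913143-143914278 and chr12:57038707-57040294, were called in all 28 libraries. At the second of these the ranks were 60 and 82 with the deletion and 10 and 13 with wild type.

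The 12 opened regions in neither full-length deletion list were looked up after the counts were known. The best ranked, chr16:29481009-29481435, had ranks of 13361 and 8538 and folds of 9.60 and 11.5 with ARID1B_WT and was in both ARID1B_S320_G327del and both ARID1A_WT lists. It was in no library of ARID1B_Block13del, ARID1B_Block9del or ARID1A_Y42S, the constructs that share run E.

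Chromosomes differed in how the opened regions were spread. Chromosome 5 held 432 of the 4006 regions gained with ARID1B_WT, 19.4% of its own regions, and both deletion libraries kept 66.7% of them. Over all chromosomes they kept 59.7%. Chromosome 7 held 341 gained regions (8.51% of that set), of which 58.7% were kept, near the share over all chromosomes. It held 112 of the wild-type-only regions (9.55% of that set) and 6.06% of all regions. Chromosome 19 held 58 gained regions, 3.65% of its regions, of which 41.4% were kept, and the X chromosome held 16. The kept share ran from 33.3% of 18 regions on chromosome 21 to 68.3% of 60 on chromosome 18, on small numbers at both ends.

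The X chromosome separated the groups by library. It held 1.84% and 1.83% of the peaks in the ARID1B_A457_G461del lists, 1.47% and 1.48% with ARID1B_WT and 2.20% to 2.26% with Empty_vector, at equal length. Of the regions called in one group only, 34 on the X were called only with the deletion (3.46% of that set) and 3 only with ARID1B_WT (0.256%), while the X held 1.84% of all regions. In whole lists 32 on the X were called only with the deletion (2.73% of that set) and 136 only with ARID1B_WT (2.09%). The order of the counts thus turned with the unequal set sizes, while that of the shares on the X did not. Of its 606 regions 72 (11.9%) were lost with ARID1B_WT. ARID1B_S320_G327del stood at 1.54% and 1.57% and ARID1B_Block13del at 2.15% and 2.17%. Chromosome 19 ran in the same order, at 5.37% and 5.24% with the deletion, 5.09% and 5.06% with wild type and 6.36% to 6.54% with Empty_vector. On both chromosomes the deletion lay between ARID1B_WT and Empty_vector, with no overlap, and nearer to ARID1B_WT on chromosome 19.

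**Figure D5:**
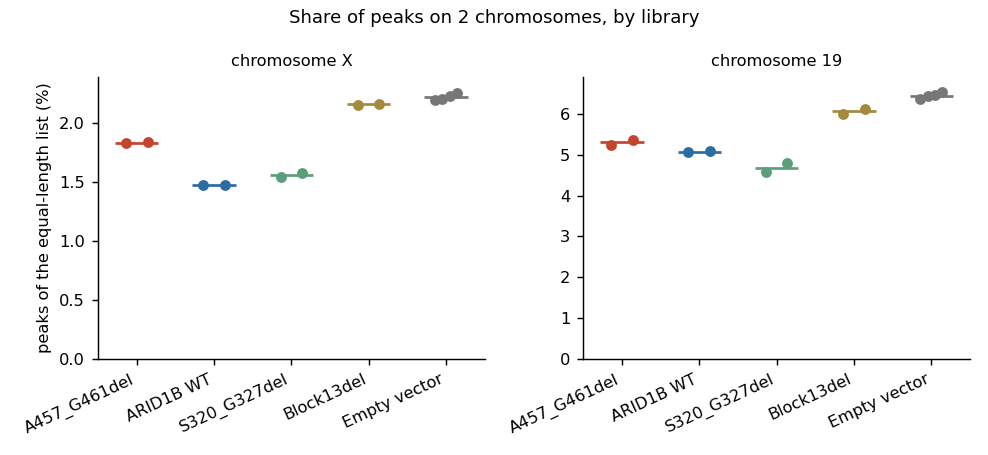
Percent of each library's equal-length peak list that lies on the X chromosome and on chromosome 19 (points: libraries, lines: group means). The A457_G461del libraries lie at 1.84% and 1.83% on the X, above ARID1B WT at 1.47% and 1.48% and below Empty vector at 2.20% to 2.26%.

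Opened regions lay in clusters in places. The megabase of chromosome 7 from 105000001 to 106000000 held 17 gained regions, of which both deletion libraries kept 8, and that of chromosome 5 from 55000001 to 56000000 held 15, of which 11 were kept. On chromosome 6, from 36000001 to 37000000, 0 of 7 gained regions were kept by both deletion libraries and 5 were called by neither. These bins were picked after their counts were seen and carry no test.

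Libraries were compared last over all regions by the Jaccard index, the number of regions called in both of 2 libraries over the number called in either. At equal length it was 0.794 between the 2 ARID1B_A457_G461del libraries and 0.776 between the 2 ARID1B_WT libraries. Across the groups it was 0.726 ± 0.00395 (SD over 4 pairs, which share libraries). Between ARID1B_S320_G327del and ARID1B_WT, which share a run, it was 0.720 ± 0.00574 (SD over 4 pairs). In full-length lists this order turned. There ARID1B_A457_G461del and ARID1B_WT stood at 0.700 ± 0.00692, and ARID1B_S320_G327del and ARID1B_WT at 0.729 ± 0.0107 (SD over 4 pairs each). The next values are again at equal length. The deletion stood nearer to Empty_vector, at 0.606 ± 0.00624 (SD over 8 pairs), than ARID1B_WT did, at 0.546 ± 0.00859 (SD over 8 pairs). Its index with ARID1B_Block13del, from its own run, was 0.668 ± 0.00681, below that with ARID1B_WT.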

How the data were processed

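Per the submitters' processing notes, reads were handled with bcl2fastq, Bowtie2, Picard, SAMtools and MACS2 on hg19; their settings were not stated. The deposited broadPeak lists give each peak's fold enrichment as a ratio, its −log10 p and −log10 q, and a score, all the authors' values per sample. The lowest −log10 q per list was 3.00 to 3.03. Depth is unknown.

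Peaks on chromosomes 1 to 22 and X were ranked by −log10 p, cut to 19433 per list, and merged where they overlapped by 1 bp or more into regions seen in at least 2 libraries (Python 3.11.15, NumPy 2.4.6, pandas 2.3.3, SciPy 1.17.1). Means were compared by exact permutation tests over libraries. The code was tested on simulated lists. Replicate numbers were taken as names only. The named regions are the 8 best ranked of each kind and the 4 largest rank gaps in each direction. Members and lists were chosen with earlier results of these data known. Alternatives covered list length, ranking, the q threshold, overlap, windows, the Empty_vector libraries used and each left-out library. Regions were not annotated to genes, since no hg19 annotation was used here.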

Additional observations from a re-analysis of the deposited data

Results flagged for a closer look

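One Empty_vector library stood apart on the regions lost with ARID1A_WT at equal length. Empty_vector library 3 called 76.2% of its set, against 81.8% to 82.7% in the other 3, a gap that Dixon's ratio of 0.866 puts above the critical value for 4 samples. Chance flags about 1 in 20 such groups. The ratio was also taken on the other region sets at both lengths and on peak number, width and fold, with no other flag.

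In 4 of 8 comparisons of region sets the 2 small deletions lay on opposite sides of ARID1B_WT with no overlap of libraries, and the difference between them was not tested. On the regions gained with ARID1A_WT at equal length, ARID1B_A457_G461del minus ARID1B_WT was -10.0 percentage points and ARID1B_S320_G327del minus ARID1B_WT was 10.4. At full length the differences were -17.6 and 6.45 percentage points. On the regions lost with ARID1A_WT they were 11.0 and -7.96, and on those lost with ARID1B_WT 14.4 and -10.6, both at equal length. ARID1B_S320_G327del shares a run with ARID1B_WT and ARID1B_A457_G461del does not. They lay on the same side on the regions gained with ARID1B_WT, at -18.9 and -1.61 percentage points at equal length and -23.4 and -1.43 at full length, and on the regions lost with ARID1B_WT at full length, at 6.85 and 2.46. On the regions lost with ARID1A_WT at full length they were 7.48 and 0.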

How the results depend on the processing

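Depth is unknown, run and construct cannot be told apart, and 2 libraries against 2 cannot pass a threshold of 0.05, so no p below bears on stability.

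The 3 differences in the share of gained and lost regions kept their sign under every alternative run. For the regions gained with ARID1A_WT they ran from -17.6 to -7.57 percentage points, and for those gained with ARID1B_WT from -23.5 to -13.0. For those lost with ARID1A_WT they ran from 7.48 to 28.7. The 7.48 came from whole lists, where the set held 107 regions and the libraries of the groups overlapped. The exact p was 0.333 throughout, apart from 0.667 for the lost regions in whole lists and 0.5 in the replicate block.

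The deletion-only count was 2628 with lists cut to the shortest of the 4, 465 at 9716 peaks and 2644 in 500 bp windows. Without 1 replicate it was 983 to 1929. The wild-type-only count was 6500 in whole lists, 3157 with lists cut to the shortest of the 4, 531 at 9716 peaks, 728 at equal covered length, 5494 in whole lists with −log10 q of at least 5, and 3329 in windows. Without 1 replicate it was 1173 to 2021. More regions are compared in longer lists and in windows, and fewer libraries must agree when 1 is left out. The share in no Empty_vector library stayed between 24.5% and 49.3% for deletion-only and between 69.9% and 86.8% for wild-type-only regions.

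The Jaccard index was 0.700 in whole lists, 0.731 with lists cut to the shortest of the 8 and 0.731 with the shortest of the 4, 0.594 when ranked by fold, 0.711 with −log10 q of at least 5, 0.669 where a peak must cover 50% of a region, and 0.710 in windows. Without 1 replicate it was 0.724 to 0.728. The 50% rule was added after seeing the data, since the planned overlap rule could not change a call. The cause of these shifts was not tested.

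Same-numbered libraries deviated together only weakly (correlation 0.0854 over 14248 regions), so the numbers were not taken as pairs. The replicate block left all differences and counts at their values, at -10.0, 11.0 and -18.9 percentage points, 983 and 1173 regions and a Jaccard index of 0.726, with p = 0.5 (exact permutation within pairs), the smallest it allows. Leaving out an ARID1B_WT library gave no value for its own gained regions, since each is scored on the other's.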
